A study of Mus musculus with 2 samples.

Results

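S2 is a cluster of liver sinusoidal endothelial cells in the authors' annotation, and it held 1572 of the 15835 annotated cells. Its members are all annotated barcodes with that cluster name, matched by barcode to the count table of their library. The control library held 1459 S2 cells, which were 19.0% of its annotated cells and 49.5% of its 2948 endothelial cells. The c-Maf KO library held 113, which were 1.38% of its annotated cells and 3.78% of its 2991 endothelial cells. What the letters S and S2 stand for was not stated by any source at hand. S2 was set against S, the other cluster that carried the sinusoidal markers in both libraries, with 1320 control and 223 c-Maf KO cells. Where the c-Maf KO library is described, its largest endothelial cluster, KOS_1 with 1356 cells, is given beside them.

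The livers came from mice at postnatal day 15, from control endothelial cell mice and from c-Maf KO endothelial cell mice. Cells were sorted by fluorescence, and endothelial and hematopoietic cells were captured in droplets with polyadenylated RNA counted by unique molecular identifiers (UMIs), so that a count is a molecule. Each group had 1 library, and each library pooled the cells of a male and a female mouse. No source at hand names the promoter that drives the deletion or the deleted segment of Maf. The annotated cells held 45157041 UMIs in the control and 51774798 UMIs in the c-Maf KO library. No value below has a replicate check: every interval is a 95% interval for counting error, and every comparison is between these cells or libraries. The clusters were drawn from the same genes that are compared here, so a difference between S2 and S is a description. In all, 21 annotated barcodes occurred in both libraries, of which 4 were control and 1 was c-Maf KO S2 cells.

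Liver sinusoids are lined by a fenestrated endothelium without a continuous basement membrane, which clears macromolecules from blood through scavenger receptors and lysosomes. It also sends signals to the hepatocytes beneath it. Cells near the central vein make Wnt ligands and R-spondin that set the pericentral program of hepatocytes, while cells near the portal vein carry arterial and Notch pathway genes. c-Maf is a basic leucine zipper transcription factor expressed in this endothelium.

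The sinusoidal name held for S2 in both libraries. UMIs were summed over cells and scaled to a total of 1000000 for those cells (CPM). Maf had 2327 CPM in control S2, Stab2, which encodes the hyaluronan scavenger receptor stabilin-2, had 1847 CPM, the lectin gene Clec4g had 2750 CPM and the secreted DNase gene Dnase1l3 had 2329 CPM. For c-Maf KO S2 the levels were 1998 CPM for Maf, 1273 CPM for Stab2, 1782 CPM for Clec4g and 1858 CPM for Dnase1l3. The B lineage cluster B3, which should lack these transcripts, had 15.3, 19.4 and 33.8 CPM of Stab2, Clec4g and Dnase1l3 in the control library. On GRCm38 with GENCODE M21, all on the minus strand, Maf lies on chromosome 8 from 115682942 to 115707794, Stab2 on chromosome 10 from 86841198 to 87008025, Clec4g on chromosome 8 from 3707064 to 3720651 and Dnase1l3 on chromosome 14 from 7964533 to 7994573.

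Maf, the targeted gene, was present in every S2 cell of the c-Maf KO library. All 113 cells had a Maf UMI, with a median of 15 and a range of 3 to 41, and all 1459 control S2 cells had one, with a median of 17 and a range of 1 to 72. In KOS_1 the level was 9.32 CPM and 1273 of 1356 cells had no Maf UMI. With each cell thinned to 759 UMIs, 71.7% of c-Maf KO S2 cells and 80.7% of control S2 cells had a Maf UMI, against 0.516% of KOS_1 cells and 1.32% of control B3 cells. A tag from outside a deleted segment would be counted too, so the UMIs show that Maf RNA was present in these cells and not that the allele was intact.

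S2 cells were deep and S cells shallow. The median S2 cell had 7382 UMIs in the control and 8000 in the c-Maf KO library, against 1864.5 and 2909 UMIs in S. All comparisons of S2 with S below were therefore made after each cell was thinned at random to 759 UMIs, which left out no S2 cell, 126 control S cells and 28 c-Maf KO S cells. They were repeated at 4344 UMIs, near the lower end of S2 depth, where 1309 control and 105 c-Maf KO S2 cells remained beside 209 and 92 S cells. This second depth was chosen after seeing the data. Cells were also compared within a mouse: those with an Xist UMI and none of 4 Y-linked genes are called female-type, and the reverse male-type. In the control library 480 S2 and 201 S cells with at least 759 UMIs were female-type, and 697 and 125 were male-type. The S cells that could be assigned in this way were deeper than the rest of S, with medians of 5358 UMIs in female-type and 2222.5 UMIs in male-type cells. Of the 1320 control S cells 975 had neither kind of UMI, so the assigned cells are a selected part of S.

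The RNA of S2 cells held fewer mitochondrially encoded and ribosomal protein transcripts than that of S. At 759 UMIs the 13 mitochondrial messenger RNAs made up 6.13% of UMIs in control S2 (6.09 to 6.18) and 11.5% in S (11.5 to 11.6). For the c-Maf KO library these shares were 5.44% (5.29 to 5.59) and 8.51% (8.36 to 8.65). At 4344 UMIs they were 5.98% against 8.61% in the control and 5.34% against 6.09% in the c-Maf KO library. All 13 genes had lower levels in control S2 at 759 UMIs, with log2 ratios from -0.56 for mt-Atp8, a subunit of ATP synthase, to -1.18 for mt-Nd6, a subunit of complex I. Cells with over 10% mitochondrial UMIs were 5.41% of S2 in the control and 2.65% in the c-Maf KO library, against 62.3% and 33.2% of S. Ribosomal protein genes held 12.7% of UMIs in control S2 and 19.1% in S, and 14.6% and 19.3% in the c-Maf KO library.

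The difference in composition was also present between cells of like depth in the control library. The ribosomal protein share of S2 was higher in each deeper class, while that of S fell to 17.4% at 4000 to 6000 UMIs and was 17.8% in the deepest class. Among cells with 2000 to 4000 UMIs, 105 S2 cells had 8.02% ribosomal protein UMIs and 372 S cells had 18.3%. Malat1, a nuclear long noncoding RNA, had 39797 CPM in those S2 cells and 13917 CPM in those S cells. Among cells with 8000 to 12000 UMIs, 424 S2 cells had 14.1% ribosomal protein UMIs and 18912 CPM of Malat1, and 42 S cells had 17.8% and 8714 CPM. The shallowest S2 cells thus had the least ribosomal protein RNA and the most Malat1 of the classes of S2, whereas the shallowest S cells, 277 with 500 to 1000 UMIs, had the most ribosomal protein RNA (21.4%) and the least Malat1 (2899 CPM) of the classes of S. For c-Maf KO cells, the class from 6000 to 8000 UMIs held enough cells of both clusters: its 35 S2 and 34 S cells had 5.24% and 5.27% mitochondrial UMIs, 14.7% and 18.0% ribosomal protein UMIs, and 19401 and 11641 CPM of Malat1. Of the 3 measures, the ribosomal protein share and Malat1 differed between the clusters there, and the mitochondrial shares were nearly equal.

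Within a mouse most of these differences were smaller. The mitochondrial difference of male-type cells, -5.16 percentage points, was near the -5.41 of the whole control library. Female-type control cells had 6.59% mitochondrial UMIs in S2 and 8.62% in S, and male-type cells had 5.98% and 11.1%. Ribosomal protein shares were 13.5% and 14.1% in female-type and 12.4% and 16.3% in male-type cells. Malat1 had 20501 CPM in female-type S2 and 23814 CPM in female-type S, so that its direction was turned there. In male-type cells it had 23417 against 19499 CPM. Both S values lay above every depth class of control S, of which the highest had 13917 CPM. The assigned S cells are thus a selected part of S, and what this selection adds to the within-mouse values was not tested.

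**Figure D1:**
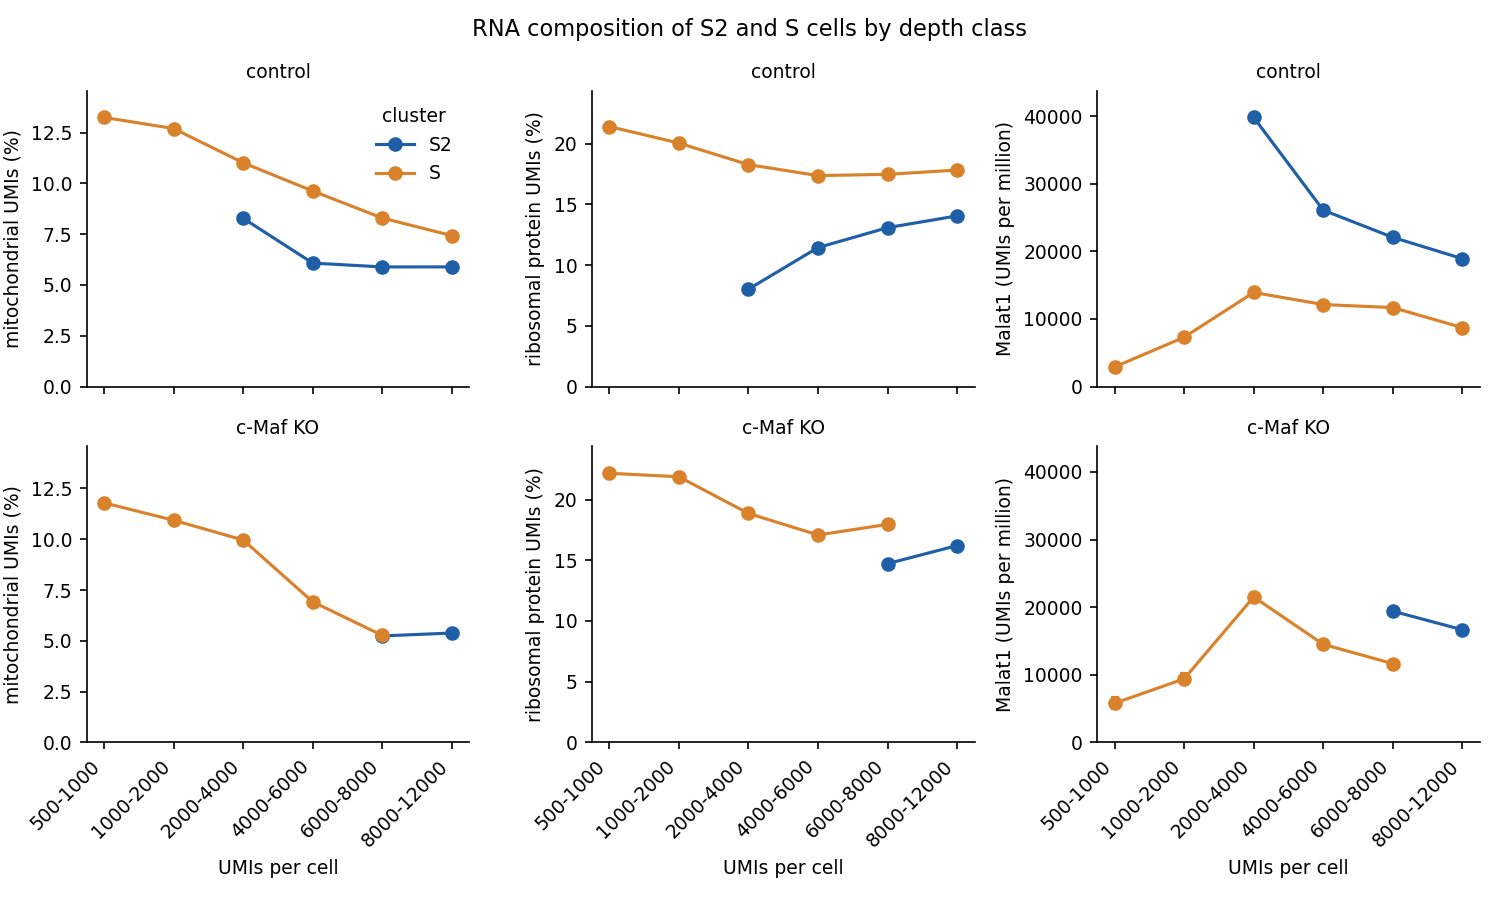
Share of mitochondrial UMIs, share of ribosomal protein UMIs and Malat1 level (CPM, with 95% Poisson intervals) by UMIs per cell, for S2 (blue) and S (orange) in each library; classes under 20 cells are left out. In the control library S2 lies below S in both shares and above it in Malat1 in every class that both fill.

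S2 cells had more genes per cell than S cells at equal depth. At 759 UMIs the medians were 558 and 491 genes in the control library and 555 and 522 in the c-Maf KO library. At 4344 UMIs they were 2094 and 1975 genes in the control, and 2090 and 2018.5 in the c-Maf KO library.

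Across the genome, the rule of size called a gene higher or lower where 3 conditions were met: a ratio of 1.5-fold or more, a 95% interval without equality, and 50 or more UMIs over both sums. At 759 UMIs, 1393 of 5643 control genes (24.7%) were called higher in S2 and 206 (3.65%) lower, with a median log2 ratio of 0.27 over these genes. Of the calls, 87.1% were in the direction of S2. This split moved with the total that levels were scaled to: 77.9% of calls were higher when mitochondrial UMIs were left out of the totals, and 52.9% (728 higher and 648 lower) when ribosomal protein UMIs were left out too, a shift of -0.23 in the median of all genes. With fewer cells behind the sums, 70 of 699 c-Maf KO genes (10%) were called higher and 37 (5.29%) lower, and 65.4% of calls were higher, or 53.8% and 28.2% with the same totals. Among the 698 genes tested in both libraries, 50 were higher in both, 20 were lower in both and none had opposite calls. Within the female-type control cells, where the sums held fewer UMIs, 89 of 1904 genes were higher and 31 lower, and within the male-type cells 235 of 2386 were higher and 64 lower. At 4344 UMIs, 914 of 8941 control genes (10.2%) were higher and 155 (1.73%) lower, and 178 of 3197 c-Maf KO genes (5.57%) were higher and 68 (2.13%) lower.

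Sinusoidal identity genes were higher in S2 at 759 UMIs and mostly within 1.5-fold at 4344. Of 25 tested members of the identity list, 19 were called higher and none lower in the control library, with a median log2 ratio of 0.79 beside 0.30 for all genes with at least 20 UMIs. List medians of S2 over S, and of c-Maf KO over control below, cover the members with at least 20 UMIs, which can be more than the members tested. Maf had 2327 CPM in control S2 and 1496 CPM in S, a log2 ratio of 0.64 (0.54 to 0.73), and 2285 against 1432 CPM in the c-Maf KO library (0.67, 0.39 to 0.96). Stab2 had 1951 against 1011 CPM (0.95) and Dnase1l3 had 2360 against 1408 CPM (0.74) in the control library. Clec4g had 2819 against 2269 CPM (0.31), which did not pass the rule, and 1877 against 1818 CPM (0.05) among c-Maf KO cells. Kdr, the main VEGF receptor, had 2532 against 1479 CPM in the control and 2833 against 1770 CPM in the c-Maf KO library. Bmp2, a ligand by which this endothelium controls hepatocyte iron sensing, had 759 against 427 CPM in the control library, and its 746 against 513 CPM among c-Maf KO cells did not pass. Of 19 identity genes tested in the c-Maf KO library, 8 were higher and none lower, with a median of 0.54 beside 0.15 for all genes. Within a mouse of the control pool the median was 0.22 (female-type) and 0.61 (male-type), and Maf passed the rule in male-type cells (0.64) and not in female-type cells (0.14).

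At 4344 UMIs, 8 of 25 identity genes were higher in control S2, with a median of 0.46 beside 0.13 for all genes. Maf (0.40), Stab2 (0.44), Clec4g (0.06) and Dnase1l3 (0.52) did not pass the rule there, nor did they in the c-Maf KO library (0.32, 0.41, 0.04 and 0.29). Fcgr2b, which encodes the Fc receptor that removes immune complexes, still did in the control library, with 1724 against 1127 CPM. So did the mannose receptor gene Mrc1 with 1779 against 1137 CPM and Kdr with 2408 against 1595 CPM. Within a mouse at 759 UMIs, Fcgr2b had 1243 against 1147 CPM in female-type cells, with intervals that overlap. In male-type cells it had 1943 against 1117 CPM. Deeper S cells were thus closer to S2 in these genes than the whole of S was.

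Receptor and degradation genes were also higher in S2 at 759 UMIs, where 24.7% of all control genes were called higher, with a median of 0.30. Among scavenger and endocytic receptors, 10 of 13 were higher in control S2 and none lower (median 0.79), among them Lyve1, a hyaluronan receptor, with 1112 against 640 CPM. For the lysosome, 15 of 26 were higher and none lower (median 0.70), among them Ctsd, an aspartic protease, with 1050 against 611 CPM. At 4344 UMIs 2 of 14 receptors and 3 of 29 lysosomal genes were higher, near the 10.2% of all genes called higher at that depth. BMP and TGF-beta signalling genes were higher in 7 of 15 cases at 759 UMIs, with none lower (median 0.58).

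Nuclear-encoded genes of the respiratory chain lay on the other side. None of 26 respiratory chain genes was higher in control S2 and 3 were lower (Uqcrb, Atp5g1 and Atp5j), with a median of -0.30. Atp5j, a subunit of ATP synthase, had 384 against 585 CPM, and Ndufa2, of complex I, had 224 against 287 CPM, which did not pass the rule. Of 13 tested in the c-Maf KO library, 0 were higher and 1 was lower (median -0.16). Of 14 glycolysis and hypoxia genes in the control library, Vegfa was higher, Tpi1 was lower and 12 were neither, and at 4344 UMIs 1 of 21 was higher and 3 were lower. Gapdh, of glycolysis, had 601 against 848 CPM in the control library, which did not pass, and 609 against 927 CPM at 4344 UMIs, which did.

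**Figure D2:**
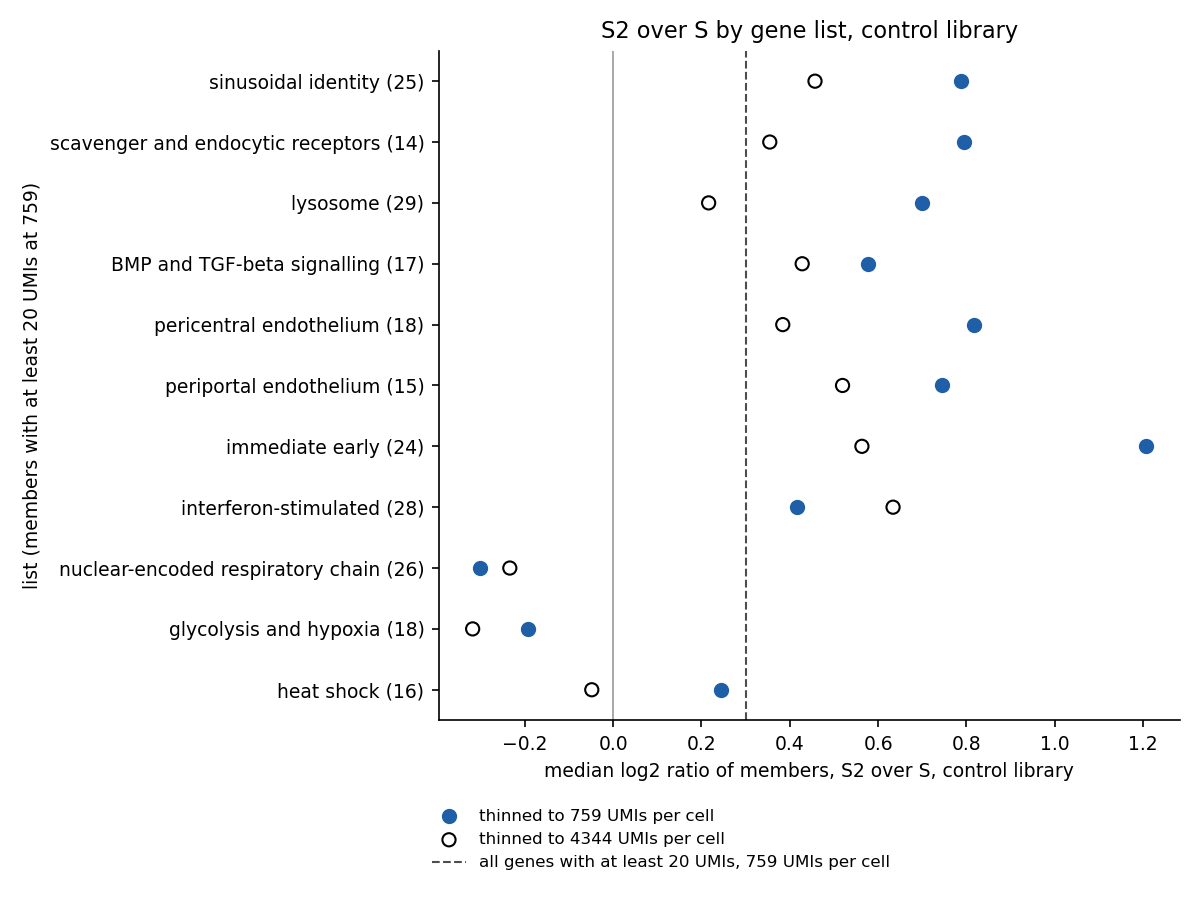
Median log2 ratio of S2 over S in the control library for 11 gene lists, at 759 UMIs per cell (filled) and 4344 UMIs per cell (open); the dashed line is the median of all genes at 759 UMIs, 0.30. Immediate early genes have a median of 1.21 at 759 UMIs, and respiratory chain and glycolysis genes lie below 0 at both depths.

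Immediate early genes, transcription factors and RNA decay factors that are switched on within minutes of a stimulus, including cell dissociation, had a high median. Of 19 tested in the control library, 16 were called higher in S2 at 759 UMIs and none lower, with a median of 1.21. Fos had 325 CPM in S2 and 87.2 CPM in S, a log2 ratio of 1.89 (1.54 to 2.27). Egr1 had 202 against 36.4 CPM (2.46), Jun had 794 against 239 CPM (1.73) and Zfp36, which destabilises inflammatory messenger RNAs, had 135 against 39.7 CPM (1.75). The heat-inducible chaperone gene Hspa1b had 157 against 24.3 CPM (2.67). Fos and Jun passed the rule within each mouse, with Fos at 711 against 302 CPM in female-type and 183 against 42.2 CPM in male-type cells.

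The difference was smaller among deep cells, and in the c-Maf KO library. At 4344 UMIs 11 of 24 immediate early genes were higher in control S2 and none lower, with a median of 0.56, and Fos had 375 against 238 CPM while Egr1 had 234 against 100 CPM. Among c-Maf KO cells 1 of 6, Jund, was higher at 759 UMIs, and at 4344 UMIs 1 of 18 was higher and 1 lower, with a median of 0.12. Fos there had 129 CPM in S2 and 130 CPM in S.

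Other genes with the highest ratios in control S2 were of mixed kinds and mostly low in S, and which genes they were changed with the random draw. Mir99ahg, a host transcript of microRNAs, had 117 against 24.3 CPM (2.25) and 101 against 47.4 CPM at 4344 UMIs. Adamts1, a secreted metalloprotease, had 310 against 76.1 CPM (2.02), Mertk, a receptor tyrosine kinase that takes part in the uptake of dying cells, had 201 against 51.9 CPM (1.95), and Nfkbiz, a nuclear regulator of NF-kappa B, had 65.0 against 16.6 CPM (1.94), though Nfkbiz did not pass the rule at 4344 UMIs. Interferon-stimulated genes as a list were higher in 10 of 24 cases at 759 UMIs (median 0.42), beside 24.7% of all genes (median 0.30). At 4344 UMIs 15 of 28 were higher (median 0.63), beside 10.2% of all genes (median 0.13). Ifit1 had 45.2 against 15.4 CPM and 51.0 against 17.6 CPM. This list also differed between the control mice: in S2, 12 of 28 were lower and 1 higher in female-type than in male-type cells (median -0.37). The part of the mix of mice in the S2 over S values was not tested. The summed level of that list was nearly equal at 759 UMIs, 7513 CPM in S2 and 7547 CPM in S. All 3 tested nuclear retained RNAs were higher at 759 UMIs: Malat1 with 22898 against 9524 CPM (1.27), Neat1, the scaffold of paraspeckles, with 203 against 69.5 CPM (1.54), and Kcnq1ot1. Malat1 passed the rule at 4344 UMIs in both libraries (0.88 and 0.61), and as given above was not higher in S2 among female-type control cells. Mir99ahg (-0.11) and Kcnq1ot1 (-0.06) were not higher in those cells either, nor was Neat1 (-0.04) in male-type cells.

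The ratio of S2 over S went with transcript length. Genes tested in the control library were put into 5 classes of equal size by their longest annotated transcript (GENCODE M21, 99.5% matched), leaving out the mitochondrial genes. The median log2 ratio was -0.20 in the class of the shortest transcripts (median 1169 bases), then 0.12, 0.33 and 0.43, and 0.55 in that of the longest (median 7261.5 bases). Called higher were 5.98% of genes in the shortest and 41.7% in the longest class, and called lower 10.8% and 0.179%. The c-Maf KO medians ran from -0.36 to 0.54. Respiratory chain and ribosomal protein genes have short transcripts. The part that length has in the list medians was not tested.

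**Figure D3:**
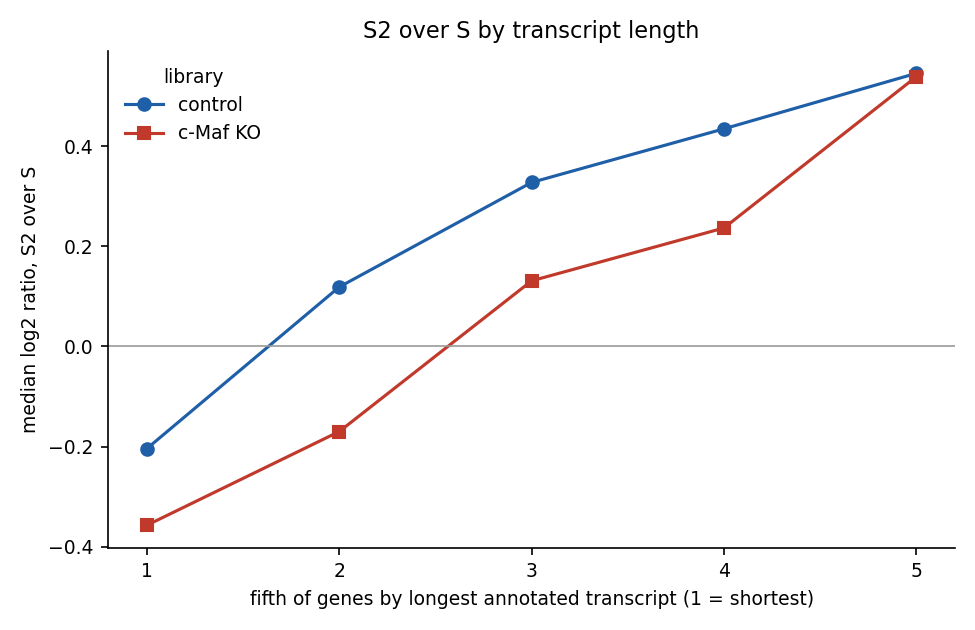
Median log2 ratio of S2 over S at 759 UMIs per cell in 5 equal classes of genes by longest annotated transcript, for the control (blue circles) and c-Maf KO (red squares) libraries. The median goes from -0.20 to 0.55 in the control and from -0.36 to 0.54 in the c-Maf KO library.

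Hepatocyte transcripts, which reach droplets as free RNA or with attached cells, were fewer in S2 than in S, and those of blood cells were so in part. Hepatocyte genes other than Apoe had 215 CPM in control S2 and 542 CPM in S, a log2 ratio of -1.33 (-1.56 to -1.11), and 152 against 547 CPM in the c-Maf KO library. Within a mouse of the control pool it was 173 against 288 CPM (female-type, with intervals that overlap) and 240 against 643 CPM (male-type). Fabp1, a fatty acid carrier of hepatocytes, had 28.0 against 108 CPM in the control library and Apoc1 had 43.3 against 106 CPM, while Alb, the plasma albumin gene, with 37.0 against 56.3 CPM, did not pass the rule. Apoe, which the endothelium and macrophages also express, had 5992 against 3957 CPM. Among markers of blood cells, Cd74, of antigen-presenting cells, had 28.9 against 60.7 CPM, and Pf4, of platelets, had 43.3 against 67.3 CPM. Of 5 tested Kupffer and macrophage genes, Lyz2 was lower with 19.0 against 43.0 CPM, Slc40a1 was higher and 3 were neither, and the summed list had 557 against 588 CPM (-0.08, -0.25 to 0.09). At 4344 UMIs Apoc1 (39.7 against 49.6 CPM) and Lyz2 (14.2 against 17.6 CPM) no longer passed the rule, while Fabp1 (30.4 against 54.0 CPM), Cd74 (30.4 against 61.7 CPM) and Pf4 (26.7 against 82.6 CPM) did. Within a mouse, Cd74 had 13.7 against 125 CPM in female-type cells, and 37.8 against 42.2 CPM, with intervals that overlap, in male-type cells. Pf4 did not differ beyond its intervals in either, with 27.4 against 26.2 CPM in female-type and 18.9 against 21.1 CPM in male-type cells.

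Hemoglobin RNA needs a separate statement, because single cells held most of it. Hbb-bs, the adult beta-globin gene, had 11.7 CPM in control S2 and 205 CPM in S at 759 UMIs, but 14.8 and 13.2 CPM at 4344. In control S, a single cell held 508 of the 667 Hbb-bs UMIs, and in c-Maf KO S a single cell held 402 of 413. In S2 the richest control cell held 49 of 182, and the c-Maf KO cells held 1 UMI in all.

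Scrublet marked 2 control and 0 c-Maf KO S2 cells as doublets, against 8 and 1 S cells.

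Summed over each list, control S2 held pericentral and periportal RNA in like amounts, while S as a whole leaned to the pericentral side. The pericentral share is the UMIs of 20 pericentral genes as a percent of those of 20 pericentral and 18 periportal genes. It was 50.7% in control S2 (49.7 to 51.8) and 62.4% in S (61.1 to 63.6) at 759 UMIs, and 51.2% and 62.6% at 4344. Both clusters had like sums of pericentral RNA, 4023 and 3935 CPM, and S2 had the larger sum of periportal RNA, 3911 against 2376 CPM. Abundant genes weigh most in such sums: in control S2 at 4344 UMIs, Fabp4 held 9548 of the 22952 pericentral UMIs. The part of Fabp4 in the difference between S2 and S was not tested. For the c-Maf KO library the shares were 54.4% (50.5 to 58.3) and 58.0% (54.7 to 61.3), with intervals that overlap, and at 4344 UMIs 54.9% and 56.4%. KOS_1 had 49.8% at 4344 UMIs. Of the pericentral list, Wnt9b, Cd34 and Ccnd1 were called higher and Selp lower in c-Maf KO than in control S2. Without Ccnd1 the shares at 4344 UMIs were 49.4% in control S2 and 60.9% in control S. In the c-Maf KO library they were then 52.4% in S2, 52.8% in S and 43.8% in KOS_1.

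The random draw bears on these differences, so the thinning was repeated 20 times after seeing the data. In control cells S2 minus S had a median of -12.6 percentage points and lay below 0 in 20 of 20 draws, from -13.45 to -11.3. For c-Maf KO cells the median was -2.92, with draws from -6.39 to 2.53 and 2 of 20 above 0, so that no direction can be given. Female-type control cells had a smaller difference, with a median of -3.97 and a range of -6.56 to -1.26, and male-type cells gave either direction, with a median of 0.96 and a range of -2.78 to 5.09. On all UMIs the pericentral shares of S2 and S were 55.2% and 60.4% in female-type and 49.6% and 48.1% in male-type control cells.

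By gene, both zones were represented among the calls in control S2. Of 15 tested genes per list, 10 pericentral (median 0.82) and 10 periportal genes (median 0.74) were higher, and none was lower. Of all genes, 24.7% were called higher at that depth, with a median of 0.30. At 4344 UMIs 7 of 18 pericentral genes were higher and 1 lower (median 0.38), beside 10.2% of all genes called higher. The summed level of the pericentral genes was there below that of S, 4036 against 4689 CPM. Kit, a receptor tyrosine kinase of central endothelium, had 210 against 94.9 CPM, and Thbd, thrombomodulin, had 163 against 78.3 CPM. Wnt2, the ligand of the central zone, had 410 against 289 CPM and did not pass the rule. On the portal side, Ltbp4, a binder of latent TGF-beta, had 485 against 225 CPM, Efnb2, the arterial ephrin ligand, had 92.1 against 45.2 CPM, and Adam23 had 738 against 448 CPM. Kit (-0.11) and Adam23 (-0.10) were not higher among female-type cells, nor Efnb2 (-0.13) among male-type cells.

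Within control S2 the pericentral share varied widely from cell to cell. Among its cells at 4344 UMIs it had a median of 48.7% and quartiles of 33.3% and 64.9%, and in c-Maf KO S2 a median of 54.8% and quartiles of 40% and 65.2%. To see which genes moved together within S2, cells with a Wnt2 UMI were compared with cells without, a split that Wnt2 defines and that leaves the other genes free. At 4344 UMIs 867 control cells had such a UMI and 442 had none. Of 8656 genes tested, 202 (2.33%) were higher and 128 (1.48%) lower in cells with Wnt2. Of 17 tested pericentral genes other than Wnt2, 11 were higher and none lower, with a median of 0.72 beside 0.01 for all genes. Of 16 periportal genes, none was higher and 6 were lower, with a median of -0.43.

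Rspo3, the R-spondin that amplifies Wnt signals near the central vein, had 104 CPM in S2 cells with Wnt2 and 4.17 CPM in those without, a log2 ratio of 4.56 (3.65 to 5.86). It was the gene with the largest ratio of those with at least 100 UMIs. Lhx6, a homeobox factor, followed with 44.1 against 7.81 CPM (2.45), and Selp, P-selectin, had 56.8 against 11.98 CPM. Thbd had 200 against 84.4 CPM and Cdh13, a cadherin without a cytoplasmic tail, had 184 against 59.9 CPM. On the other side, Msr1, the macrophage scavenger receptor, had 138 against 284 CPM (-1.05), Ntn4, netrin-4, had 86.0 against 168 CPM, Efnb2 had 69.6 against 134 CPM and the Notch ligand gene Dll4 had 74.1 against 132 CPM. Maf, with 2289 against 2428 CPM, Stab2, Clec4g and Dnase1l3 passed the rule in neither direction.

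**Figure D4:**
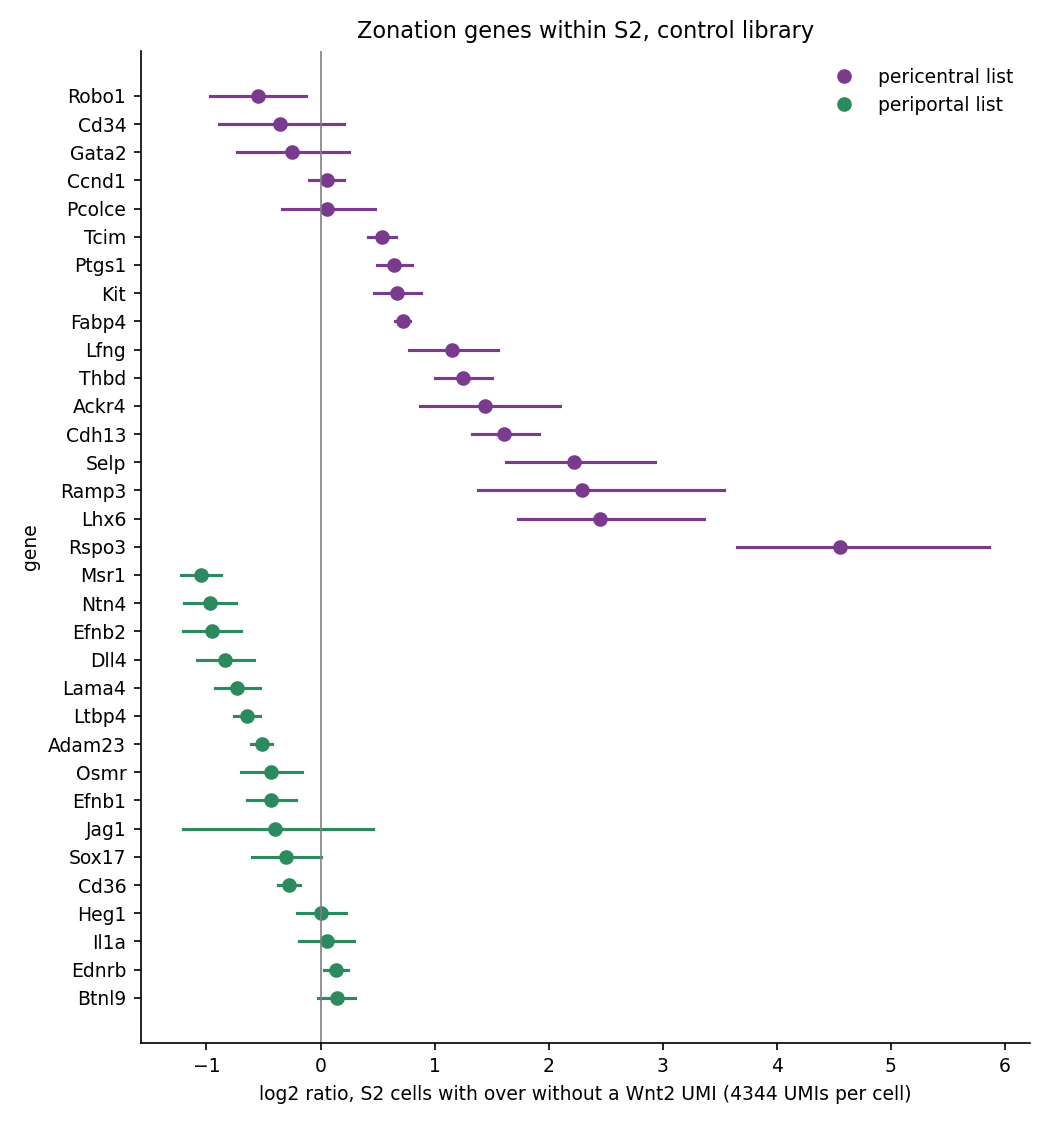
Log2 ratio, with 95% counting intervals, of control S2 cells with over without a Wnt2 UMI at 4344 UMIs per cell, for tested pericentral (purple) and periportal (green) genes. Rspo3 is farthest to the right at 4.56, and Msr1 is farthest to the left at -1.05.

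Genes outside the zonation lists also went with Wnt2, named here for their ratios after these were seen. Ltc4s, leukotriene C4 synthase, had 65.1 against 17.2 CPM (1.90), Ackr3, a chemokine scavenger, had 77.0 against 18.2 CPM (2.06), and the tetraspanin gene Cd9 had 163 against 65.1 CPM (1.32). Lower with Wnt2 were Mecom, a zinc finger factor, with 16.5 against 47.4 CPM (-1.52), the chemokine gene Cxcl9, with 26.0 against 61.5 CPM (-1.24), and Angpt2, angiopoietin-2, with 24.7 against 46.9 CPM (-0.92).

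The split by Wnt2 gave like counts in the cells of each mouse of the control pool. Wnt2 was found in 66.2% of 459 female-type and 66.8% of 626 male-type S2 cells at 4344 UMIs. Of the pericentral genes, 9 of 16 were higher in female-type and 12 of 17 in male-type cells with Wnt2, and of the periportal genes 6 of 15 and 7 of 15 were lower, while 1 pericentral gene was lower in male-type cells. C1qb, a chain of complement C1q, had 339 CPM with and 159 CPM without Wnt2 in female-type cells, and 123 and 35.4 CPM in male-type cells. C1qb is on the Kupffer and macrophage list, and the part of free or attached macrophage RNA in its values was not tested. Cxcl9 had 15.9 and 74.3 CPM in female-type and 26.4 and 62.0 CPM in male-type cells.

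In c-Maf KO S2, 71 cells had Wnt2 and 34 had none, and of 1696 genes 53 (3.12%) were higher and 32 (1.89%) lower. Of 7 pericentral genes Cdh13, Thbd and Fabp4 were higher and Ccnd1 was lower, and of 9 periportal genes Ltbp4 was lower. Rspo3 had 34 UMIs in cells with Wnt2 and 1 in cells without. Maf itself had 2289 CPM in cells with Wnt2 and 1652 CPM in cells without (0.47, 0.26 to 0.69), which did not pass the rule.

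The S2 cells of the c-Maf KO library came from the female mouse as far as sex-linked transcripts show. Of 113 cells, 111 (98.2%) had an Xist UMI and 0 had a Y-linked UMI, which allows a share of up to 3.21% (95% limit). In c-Maf KO S, 2 of 223 cells had a Y-linked UMI, against 234 of 1356 KOS_1 cells (17.3%) and 32 of 135 cells of the endothelial cluster PV (23.7%). In control S2, 727 of 1459 cells (49.8%) had a Y-linked and 510 (35.0%) an Xist UMI. A difference between c-Maf KO and control S2 is therefore a difference between the cells of 1 mouse and those of a pool, and the genotype and the mouse cannot be told apart in it. Values are given for all S2 cells first and then for the 480 female-type and 697 male-type control cells and the 111 female-type c-Maf KO cells.

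Most genes of c-Maf KO S2 passed the rule in neither direction. Of 10012 genes tested on all UMIs, 336 (3.36%) were called higher and 334 (3.34%) lower in c-Maf KO S2, with a median log2 ratio of 0.01. None of 15 general endothelial genes and none of 26 respiratory chain genes passed the rule. The cells of the control mice, compared with each other, gave calls of a like number: 259 of 9623 genes (2.69%) were higher and 331 (3.44%) lower in female-type than in male-type control S2. Against control female-type cells 343 of 8550 genes (4.01%) were higher and 314 (3.67%) lower in c-Maf KO S2, and against control male-type cells 268 of 8886 (3.02%) and 352 (3.96%). Of 8447 genes tested in both, 127 were called higher and 140 lower against each of the control types. Both comparisons use the same c-Maf KO cells, so their calls are not independent.

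Ly6a, which encodes the surface protein Sca-1 and is high in continuous vessels, had the largest ratio among the genes that the naming rule admits. It had 26.3 CPM in control and 448 CPM in c-Maf KO S2, a log2 ratio of 4.09 (3.87 to 4.30). The control types had 29.4 CPM (female) and 26.7 CPM (male). The level was below that of the other endothelial clusters of the c-Maf KO library, 677 CPM in S, 2113 CPM in KOS_1 and 3146 CPM in PV. Cd34, a sialomucin of continuous capillaries, went from 22.1 to 115 CPM (2.39, 2.05 to 2.71), with 27.4 and 20.5 CPM in the control types. At 4344 UMIs, 47.6% of c-Maf KO and 6.42% of control S2 cells had a Ly6a UMI, and 34.3% and 8.63% a Cd34 UMI. In Kupffer cells (cluster K), which should lack Cd34, the shares were 8.57% and 1.68%, and those of Ly6a 21.4% and 15.5%, at the same depth. The Ly6a and Cd34 of S2 cells in the c-Maf KO library thus exceeded those of its Kupffer cells, and free RNA adds an amount that was not tested.

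Other members of the continuous capillary list were higher or lower in few cases. Of 18 tested, Ly6a, Cd34, Aplnr, the apelin receptor gene (6.16 to 27.8 CPM), and Cavin1, a coat protein of caveolae (86.3 to 139 CPM), were higher. Sparcl1 (10.9 to 2.06 CPM) and Plvap, which forms the diaphragms of fenestrae (176 to 80.3 CPM, -1.12), were lower. Cavin1 was 82.5 and 89.5 CPM and Plvap 146 and 190 CPM in the control types, so that both lay outside the range of the types.

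Sinusoidal identity genes were mostly within 1.5-fold. Of 25 tested, none was higher and 4 were lower, with a median of -0.17. Clec4g went from 2750 to 1782 CPM (-0.63, -0.70 to -0.56), with 2723 and 2713 CPM in the control types. Ctsl, a lysosomal protease, went from 2532 to 1409 CPM (-0.85), with 2452 and 2519 CPM in the types, and Stab1 from 1239 to 809 CPM (-0.61), with 1160 and 1272 CPM, though it did not pass against the female-type cells (-0.51). Stab2, from 1847 to 1273 CPM (-0.54), Maf, from 2327 to 1998 CPM (-0.22), and Lyve1, from 1146 to 1139 CPM (-0.01), did not pass the rule. In KOS_1 the levels of Stab2, Clec4g and Dnase1l3 were 183, 602 and 8.8 CPM, far below those of S2 in the same library.

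Genes for signals to neighbouring cells and for growth were called in both directions. Hgf, hepatocyte growth factor, went from 144 to 83.4 CPM (-0.78), with 149 and 141 CPM in the control types. Inhbb, an activin subunit, went from 62.9 to 29.8 CPM (-1.05), with 83.9 and 55.6 CPM in the types. Efnb1, an ephrin ligand, went from 131 to 197 CPM (0.59), but with 109 CPM in control female-type and 138 CPM in control male-type cells it passed the rule against the former and not the latter. Wnt2 went from 409 to 362 CPM (-0.17), which did not pass the rule. Ccnd1, cyclin D1, went from 272 to 445 CPM (0.71), with 258 and 290 CPM in the types.

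Leukocyte adhesion and inflammation genes were lower in 7 of 14 cases and higher in none, with a median of -0.81. Cxcl10, a chemokine of the interferon response, went from 173 to 53.5 CPM (-1.68), Selp from 39.8 to 11.3 CPM (-1.75) and Ackr3, a chemokine scavenger, from 55.0 to 21.6 CPM. Against the control female-type cells 7 of 13 were lower (median -1.19), and against the male-type cells 5 of 12 (median -0.52). Cxcl10 had 274 CPM in female-type and 106 CPM in male-type control cells and 40.9 CPM in c-Maf KO female-type cells.

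Immediate early genes also differed between the control mice. In c-Maf KO S2, 8 of 27 were lower and 1 higher, with a median of -0.36. Fos went from 395 to 151 CPM (-1.38) and Jun from 883 to 526 CPM (-0.75). In control S2, 20 of 27 were higher in female-type than in male-type cells, with a median of 0.95: Fos had 697 and 195 CPM, Fosb had 464 and 138 CPM and Jun had 1265 and 639 CPM. c-Maf KO S2 was lower than the female-type cells in 14 of 25 cases and higher in 1 (median -0.95). Against the male-type cells 3 of 23 were higher and 2 lower (median 0.03). The chaperone gene Hspa1a, with 176 and 188 CPM in the control types and 39.8 CPM in c-Maf KO S2, was low against both.

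**Figure D5:**
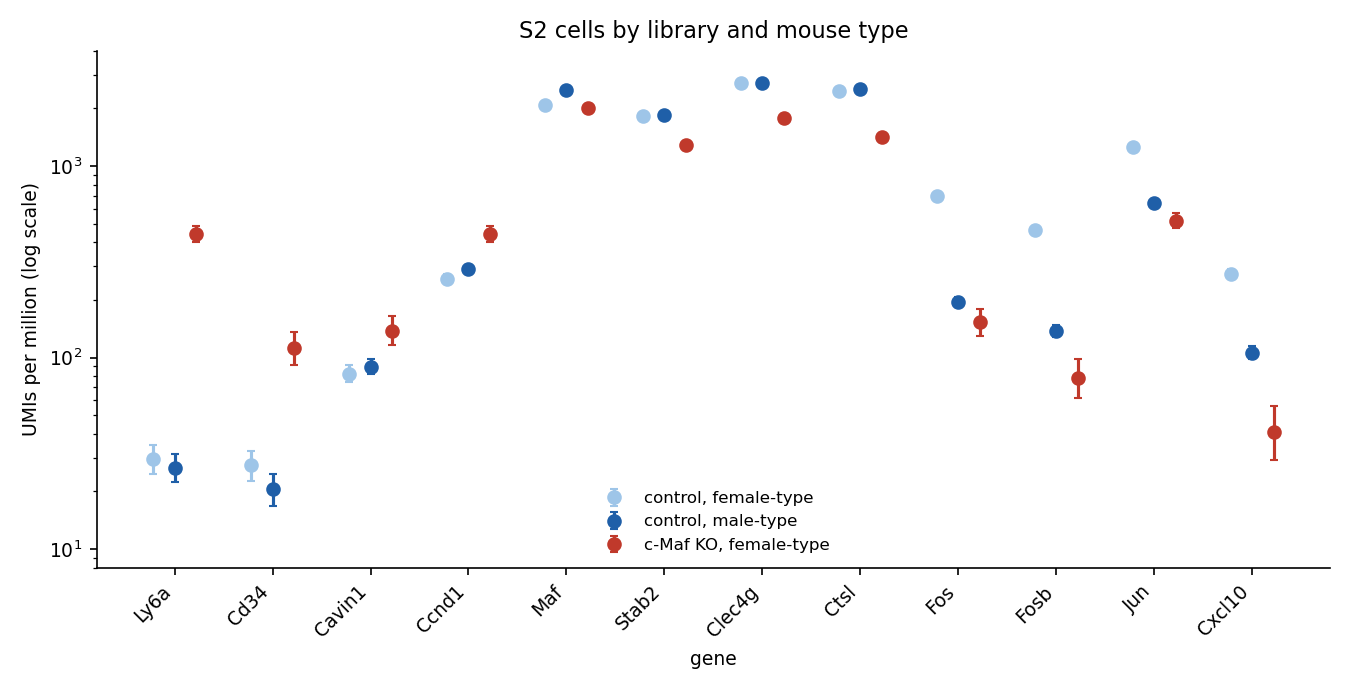
Levels of 12 genes (CPM, log scale, with 95% Poisson intervals) in S2 cells of the control female-type, control male-type and c-Maf KO female-type cells. Ly6a and Cd34 are high in the c-Maf KO cells and low in both control types, while Fos and Fosb are high in the control female-type cells and lower in the other sets.

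Macrophage transcripts were lower in c-Maf KO S2 as well. Of 11 tested, 7 were lower and 1 higher, with a median of -0.85, and the list had 567 CPM in control and 439 CPM in c-Maf KO S2. Against the control female-type cells 4 of 7 were lower, and against the male-type cells 3 of 9. Kupffer cells made up 9.99% of annotated control cells and 2.36% of c-Maf KO cells. The part of free macrophage RNA in this was not tested. C1qb went from 167 to 109 CPM, with 267 and 94.5 CPM in the control types. Clec4f, a lectin that defines Kupffer cells, went from 9.58 to 2.06 CPM. Hmox1, the exception, went from 75.6 to 131 CPM, and a single c-Maf KO cell held 62 of its 127 UMIs. Hepatocyte genes other than Apoe went from 212 to 132 CPM (-0.68).

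Among the genes with the lowest ratios, 9 of 10 had 0 UMIs in c-Maf KO S2. Fbln2, an extracellular matrix protein, had 137 UMIs (11.7 CPM) in control S2, which is at least 3.79-fold higher when 3 counts are taken as the floor over the c-Maf KO cells, and Sned1, with 8.72 CPM, was at least 2.82-fold higher. Cacna1a, a calcium channel subunit, had 45.5 CPM in control and 2 UMIs in c-Maf KO S2, but its control UMIs lay in the female-type cells, with 113 CPM against 1.86 CPM in male-type cells. Of the genes with the highest ratios after Ly6a, Igfbp5, a binder of insulin-like growth factors, went from 5.22 to 32.9 CPM (2.67), the centromere protein gene Cenpf from 2.82 to 20.6 CPM (2.88), and Emp1, a membrane protein, from 6.92 to 30.9 CPM (2.17). Between the control types, Igfbp5 had 9.42 CPM in female-type and 2.80 CPM in male-type cells, and Emp1 had 12.6 and 2.80 CPM, both called higher in the former. Cenpf, with 6.504 and 0.559 CPM, had too few UMIs for the rule there. S phase genes were higher in 4 of 17 cases and lower in none (median 0.54). Against the control female-type cells 0 of 13 were higher (median 0.31), against the male-type cells 4 of 12 were, and between the control mice 3 of 14 were higher in female-type cells.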

How the data were processed

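Cells were captured on a 10X Chromium instrument. The authors deposited a count table of UMIs per gene and barcode for each library, and a table of barcodes with their cluster names, both per the file headers. The percent of mitochondrial UMIs per barcode in that table is the authors' value, per the file headers, and was used only to check the count tables. The submitters' processing notes name the build mm10 and the tools Cell Ranger 4.0.0, FastQC 0.11.3 and Seurat 3.2.3. Parameters and the filters behind the annotation were not stated. Kits for bulk libraries are named per the labels' protocols, without saying which kit served these libraries.

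Members and all 36 gene lists were chosen with earlier results of these data known. Of the listed symbols, 4 were not in the count tables. Counts were summed over the annotated cells of a cluster and library. For S2 against S, cells were thinned without replacement to 759 UMIs, the lower of the 10th percentiles of the clusters' depths, and shallower cells were left out. c-Maf KO and control S2 were compared on all UMIs. Ratios had 0.5 UMI added to each sum, with a conditional binomial interval. Levels have Poisson intervals and shares Clopper-Pearson intervals. All of them cover counting error only. Each group has 1 library, so no test was run and no p-value is given. The 21 barcodes that occurred in both libraries and the cells marked by Scrublet (scanpy 1.11.5) were kept.

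Named are Maf, Stab2, Clec4g and Dnase1l3, genes from the 12 highest and 12 lowest ratios of S2 over S in the control library, genes from the 10 highest and 10 lowest of c-Maf KO over control in S2, and up to 3 members per direction of a list that passed the rule of size. Xist, Tsix, Y-linked, predicted, ribosomal protein, hemoglobin and immunoglobulin genes stayed out of those extremes. The extremes of S2 over S depend on the random draw, and those of c-Maf KO over control do not. Further genes, among them the further genes of the Wnt2 split, Hbb-bs and genes given for not passing the rule, were chosen after their values were seen.

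The rule of size was checked on simulated data. For S2 over S in the control library, with 5807 genes, it recovered 96% of 2-fold changes and 74 of 88 0.5-fold changes (84.1%). It left 98% of unchanged genes uncalled. For the c-Maf KO library, with 706 genes, these values were 85%, 69 of 80 (86.2%) and 97.3%. For c-Maf KO over control in S2, with 9995 genes, they were 93%, 71 of 99 (71.7%) and 98.2%. Changed genes below the UMI minimum are not in these shares. The check bears on counting error and not on spread between cells or mice. Between the control mice, the rule called 2.69% of genes higher and 3.44% lower in female-type than in male-type S2 cells. Alternatives were other thinning depths and random draws (20 for zonation), other totals, folds and UMI minimums, and sets of cells without doublets, without high mitochondrial shares, without the cells richest in other types' transcripts or within a mouse. Computations used Python 3.11.15, numpy 2.4.6, scipy 1.17.1, pandas 2.3.3 and matplotlib 3.10.9.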

Additional observations from a re-analysis of the deposited data

How the results depend on the processing

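No paired analysis was possible because each group has 1 library and the labels give no replicate numbers. The depth of 4344 UMIs, the 20 repeated draws, the hepatocyte list without Apoe and the comparisons of c-Maf KO S2 with each control type were chosen after seeing the data. Another random draw was not run for c-Maf KO over control, which uses none, and male-type cells were not compared in the c-Maf KO library, whose S2 held none. Fewer cells or UMIs leave fewer genes past the 50 UMI minimum, which lowers counts of calls by construction. Where no construction is named, the cause of a change was not tested.

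For S2 over S in the control library, the 1393 genes called higher became 913 at 0.5 times the UMIs, 728 with totals without mitochondrial and ribosomal protein UMIs, 698 without cells over 10% mitochondrial, 89 within female-type and 235 within male-type cells, 459 at 2-fold and 914 at 4344 UMIs. The 206 called lower became 325 with totals without mitochondrial UMIs, 648 without ribosomal protein UMIs too, 31 within female-type and 64 within male-type cells, and 31 at 2-fold. Of c-Maf KO genes, the 70 called higher became 436 on all UMIs, 38 and 113 at 0.5 and 2 times the UMIs, 268 on all UMIs of cells in the depth range of S2, 33 with totals without mitochondrial and ribosomal protein UMIs, 39 without cells over 10% mitochondrial, 37 within female-type cells, 18 at 2-fold, 149 and 25 with minimums of 20 and 100 UMIs, and 178 at 4344 UMIs. The 37 called lower became 101 on all UMIs, 82 in the depth range, 84 with those totals, 15 within female-type cells, 7 at 2-fold, 65 with a minimum of 20 UMIs and 68 at 4344 UMIs. For c-Maf KO over control in S2, the 336 higher and 334 lower became 106 and 115 in thinned cells, 61 and 55 at 0.5 times and 171 and 155 at 2 times those UMIs, 137 and 163 at 2-fold, and 174 and 610 without the richest cell of each gene, which takes 1 of 113 cells from 1 library and 1 of 1459 from the other.

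The mitochondrial share of S2 minus S was -5.41 percentage points in the control library and -4.30 on all UMIs, -5.57 and -4.61 at 0.5 and 2 times the UMIs, -1.08 without cells over 10% mitochondrial, -2.03 within female-type and -5.16 within male-type cells, and -2.63 at 4344 UMIs. Among c-Maf KO cells it was -3.07, and in the same order -1.66, -3.40, -2.22, -0.877 and -2.14 (female-type), -0.752 at 4344 UMIs and -3.23 with another draw. Genes per cell differed by 67 in the control library, and by 1984.5 on all UMIs, 35 without cells over 10% mitochondrial, 17 within female-type cells and 119 at 4344 UMIs. The c-Maf KO difference was 33, and 1613 on all UMIs. The share of cells with a Maf UMI differed by 17.5 percentage points in the control library, and by 20.3 on all UMIs, 9.58 at 2 times the UMIs, 20.5 without doublets, 11.2 without cells over 10% mitochondrial, 20.4 without the cells richest in other types' transcripts, 2.89 within female-type and 8.81 within male-type cells, and 0.804 at 4344 UMIs. Among c-Maf KO cells it differed by 13.2, and by 22.9 on all UMIs, 26.9 within female-type cells and 2.31 at 4344 UMIs.

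The pericentral share of S2 minus S in the control library was -11.6 percentage points, -13.3 without cells over 10% mitochondrial, -1.85 within female-type cells and, with the direction turned, 2.02 within male-type cells. Among c-Maf KO cells, where the intervals of the clusters overlap, it was -3.63 and turned to 1.38 without the cells richest in other types' transcripts and 1.95 within female-type cells.

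The log2 ratio of summed hepatocyte transcripts, Apoe included, was 0.46 in the control library and 0.316 on all UMIs, 0.315 without cells over 10% mitochondrial, -0.082 within female-type and 0.38 within male-type cells, and 0.24 at 4344 UMIs. Among c-Maf KO cells it was 0.15, and -0.0051 with another draw and -0.067 within female-type cells. For erythroid transcripts it was -2.48 in the control library and -2.82 at 2 times the UMIs, -2.97 without doublets, -1.70 without cells over 10% mitochondrial, -1.59 without the cells richest in other types' transcripts, 0.38 within female-type and -0.93 within male-type cells, and 0.32 at 4344 UMIs. For macrophage transcripts it was -0.078 in the control library and 0.0018 with another draw, 0.23 without the richest cells, 0.34 within male-type cells and -0.30 at 4344 UMIs. Its c-Maf KO value was 0.45, and -0.34 with another draw, so that no direction can be given for macrophage transcripts.

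Among single genes named in the text, the log2 ratio of S2 over S in the control library turned for Hbb-bs to 0.29 in the depth range and 0.11 at 4344 UMIs. Within female-type cells it turned for Adam23 (-0.10), Apoe (-0.051), Kcnq1ot1 (-0.058), Kit (-0.11), Malat1 (-0.22) and Mir99ahg (-0.11), and within male-type cells for Efnb2 (-0.13) and Neat1 (-0.040). For c-Maf KO over control in S2 it turned for C1qb (0.029), Clec4f (1.37) and Sparcl1 (0.32) in thinned cells, for Aplnr (-0.00985), C1qb (0.25), Clec4f (2.11), Fbln2 (0.88) and Sparcl1 (1.58) at 0.5 times those UMIs, and for Hmox1 to -0.032 in the depth range, -0.13 without the cells richest in other types' transcripts and -0.15 without its richest cell. None of these turned ratios passed the rule. Fbln2 had 0 UMIs in c-Maf KO S2, so its positive ratio comes from the 0.5 UMI added to each sum. The ratios of Clec4f and Sparcl1 in thinned cells rest on few UMIs, to which the same addition matters, and give no direction.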
